A study of Mus musculus with 6 samples.

Results

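Smarca4 encodes Brg1 and Smarca5 encodes Snf2h, and both were measured here in mouse lenses with and without a lens deletion of Gata3, together with 8 further genes of the BAF complex. The 10 genes were chosen by name from the deposited table of raw counts, which lists 13024 genes, and all 10 were present and were tested. They are Smarca4, Smarca5, Smarca2 (Brm), Smarcb1, Smarcc1, Smarcc2, Smarcd1, Smarcd3, Smarce1 and Arid1a. None of the 10 mRNAs passed the edgeR test between CKO and control lenses, nor did any of the 12879 genes tested. The log2 fold changes of the 10 lay between -0.038 (Smarca4) and 0.12 (Smarcd3).

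Chromatin remodelling complexes use ATP to slide, eject or space nucleosomes, which opens or closes DNA to transcription factors. In the BAF (mammalian SWI/SNF) complex the motor is either Brg1 or its paralogue Brm, and a core of Smarcb1, Smarcc, Smarcd, Smarce1 and Arid1 subunits holds the complex together and directs it to enhancers and promoters. Snf2h is the motor of the ISWI complexes, which space nucleosomes in regular arrays and act in replication and repair. In the lens, both Brg1 and Snf2h are known to be needed for fibre cell differentiation and for the removal of fibre cell nuclei, a step that uses the DNase encoded by Dnase2b and the heat shock factor Hsf4.

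Each of the 6 libraries was made from a pool of 10 lenses of 5 embryos at E14.5, on a mixed C57BL/6 and FVB background, with 3 pools in each group. CKO pools are numbered 1, 2 and 3 by the sample titles, and the sample descriptions and count columns number the same pools 2, 3 and 4. The CKO embryos were Gata3 f/f; Pax6-Cre/+, in which Cre, driven by a Pax6 enhancer active in the precursor ectoderm of lens and cornea together with the Pax6 P0 promoter, removes exon 4 of Gata3. The control embryos are Gata3 f/f in the study's Methods, Gata3 f/wt without Cre in its Results and wild type in the sample labels. As the Cre transgene was in the CKO group alone, its own effect cannot be told apart from that of the deletion. In bulk lens RNA, fewer cells of a type and less RNA per cell cannot be told apart.

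The libraries held 15157230 to 18811104 counts each. In control pools 1, 2 and 3 Gata3 had 202, 386 and 156 counts, and libraries labelled CKO had 910, 1064 and 894, so that the gene count was higher in the libraries in which exon 4 is deleted (log2 fold change 1.72, standard error 0.40, adjusted p = 0.65 by edgeR). The table gives 1 count per gene and cannot show the exon. All 7 lens markers were present in every pool. The pools differed in other tissue. Summed mesenchyme markers (10 genes) ranged from 313.3 to 2378 CPM in control and from 357.2 to 4187 CPM in CKO, with control pool 1 and CKO pool 2 far above the rest. The 16 crystallins took 6.63% to 16.5% of control counts and 5.47% to 7.27% of CKO counts, with control pool 2 the highest.

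To show the DNA at which these genes start, the 250 bases before the RefSeq start (GRCm38.p6) were searched for the GATA consensus (AGATAA, its variants TGATAA and AGATAG, and the variant TGATAG) and for the GC box (GGGCGG), each on both strands. GATA3 is known to bind the first, and Sp factors the second, and the 2 motifs do not overlap in these windows. Promoters were found for 9 of the 10 genes, with 2 for Arid1a. The GC box was present in 8 of these 9 genes (the exception was Smarcc2) and in 9 of their 10 promoters, against 32.7% of the 32851 promoters in the RefSeq table. These windows had 59.6% to 81.6% GC, against a median of 52.4% over all promoters, and the GC box holds only G and C. The part of base composition in this share was not tested. The GATA consensus was present in 2 of the 9 genes, Arid1a and Smarcd3, and in 2 of the 10 promoters, against 26.5% of all promoters. A match is a description of the letters and not of binding, which these data do not measure. The windows of both motor genes and of the 2 genes with a GATA match are given 5′ to 3′ on the gene's strand, with both motifs in capitals on either strand (CCGCCC and TTATCA are the reverse complements of the GC box and of TGATAA).
Smarca4 (mm10 chr9:21615919-21616168, forward strand): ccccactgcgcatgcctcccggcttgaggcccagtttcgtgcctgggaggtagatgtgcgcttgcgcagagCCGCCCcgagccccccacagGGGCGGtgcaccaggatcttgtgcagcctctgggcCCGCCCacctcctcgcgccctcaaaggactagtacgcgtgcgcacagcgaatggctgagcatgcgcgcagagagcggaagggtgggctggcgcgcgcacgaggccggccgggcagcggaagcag
Smarca5 (mm10 chr8:80739460-80739709, reverse strand): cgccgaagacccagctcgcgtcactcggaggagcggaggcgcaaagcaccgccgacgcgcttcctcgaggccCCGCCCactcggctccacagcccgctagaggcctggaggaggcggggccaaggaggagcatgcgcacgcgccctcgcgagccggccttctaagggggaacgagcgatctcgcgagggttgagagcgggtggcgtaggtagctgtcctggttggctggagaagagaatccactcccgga
Smarcd3 (mm10 chr5:24602003-24602252, reverse strand): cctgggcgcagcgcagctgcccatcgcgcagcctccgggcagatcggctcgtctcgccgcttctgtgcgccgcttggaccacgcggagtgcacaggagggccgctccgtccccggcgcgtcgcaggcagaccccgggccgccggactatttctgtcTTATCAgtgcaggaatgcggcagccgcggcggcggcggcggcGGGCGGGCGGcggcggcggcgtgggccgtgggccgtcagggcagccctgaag
Arid1a (mm10 chr4:133756770-133757019, reverse strand): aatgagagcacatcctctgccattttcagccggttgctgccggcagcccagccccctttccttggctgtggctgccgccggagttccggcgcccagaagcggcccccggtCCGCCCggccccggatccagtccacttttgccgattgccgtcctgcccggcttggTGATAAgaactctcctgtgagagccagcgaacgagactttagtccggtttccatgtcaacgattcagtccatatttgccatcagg
The Smarca4 window had 3 GC boxes and no GATA match, and the Smarca5 window had 1 GC box and no GATA match. In Smarcd3 the GATA match lay 94 to 89 bases before the RefSeq start used, and in this Arid1a window it lay 85 to 80 bases before the start. The Smarcd3 window lies inside the gene as annotated (24590818 to 24624411), so this start is an internal one. The other Arid1a window (chr4:133753986-133754235) had GC boxes and no GATA match. This window and that of Smarcc1 also lie inside their genes as annotated. GC content was 70.8% for Smarca4, 69.2% for Smarca5 and 76% for Smarcd3. It was 61.2% for the Arid1a window shown and 81.6% for the other, against a median of 52.4% over all promoters.

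To determine whether loss of Gata3 was accompanied by a change in the remodelling motors, counts were scaled to CPM with edgeR's TMM factors and tested by edgeR's quasi-likelihood test over 12879 genes. Over all these genes 0% were called at an adjusted p under 0.05 and 3.55% (457 genes) had an unadjusted p under 0.05, while DESeq2 called 0.66% (85 genes). Among the 10 remodelling genes neither tool nor limma voom called any, and 0 had an unadjusted p under 0.05 by edgeR. All 10 adjusted p-values were 1. The lowest count of any of the 10 genes in any library was 716 (Smarcd3 in control pool 2).

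Smarca4, on chromosome 9 (mm10, 21616169 to 21704230), was measured at 462.9, 457.3 and 524.7 CPM in control pools 1, 2 and 3 and at 476.4, 440.5 and 490.5 CPM in CKO pools 1, 2 and 3. The groups overlapped, with the highest value in control pool 3 and the lowest in CKO pool 2. The means were 481.6 ± 37.4 CPM (SD, n = 3) in control and 469.1 ± 25.8 CPM (SD, n = 3) in CKO. Brg1 mRNA thus differed by -0.038 on the log2 scale (standard error 0.091, edgeR p = 0.69, exact permutation p = 0.7). The 95% interval of the fold ran from 0.838 to 1.13.

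Smarca5, on chromosome 8 (80698507 to 80739497), was measured at 131.9, 104.6 and 144.4 CPM in the control pools and at 126.8, 129.6 and 144 CPM in the CKO pools. Control pool 2 was lower than the other pools, while the remaining 5 pools lay within 126.8 to 144.4 CPM. The means were 127 ± 20.3 CPM (SD, n = 3) and 133.5 ± 9.23 CPM (SD, n = 3), which is a log2 difference of 0.071 (standard error 0.13, edgeR p = 0.59, exact permutation p = 0.9). The 95% interval of the fold was 0.853 to 1.29. Without control pool 2 the log2 fold change was -0.039, so the sign of the Snf2h difference rests on that pool.

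Smarca2, on chromosome 19 (26605050 to 26778322), encodes Brm, the alternative motor of BAF, which is known to become more abundant in differentiated cells of many tissues. It was measured at 65.8, 57.6 and 55.5 CPM in control and at 49.5, 75.7 and 60.5 CPM in CKO. Both the lowest and the highest value were in CKO pools, and the group means were 59.6 ± 5.48 and 61.9 ± 13.2 CPM (SD, n = 3 each). The log2 fold change was 0.055 (standard error 0.16, edgeR p = 0.745, exact permutation p = 0.9), with the widest interval of the 10 genes (fold 0.795 to 1.36). The 2 highest pools, CKO pool 2 and control pool 1, were also the 2 pools with the highest mesenchyme markers (4187 and 2378 CPM, against 313.3 to 675.5 CPM in the others) and the highest pigment cell markers (312.7 and 308.9 CPM, against 53.3 to 71.6 CPM). The part of these cells in the Smarca2 level was not tested. Without these 2 pools the log2 fold change of Smarca2 was -0.029 (adjusted p = 1 by edgeR).

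**Figure D1:**
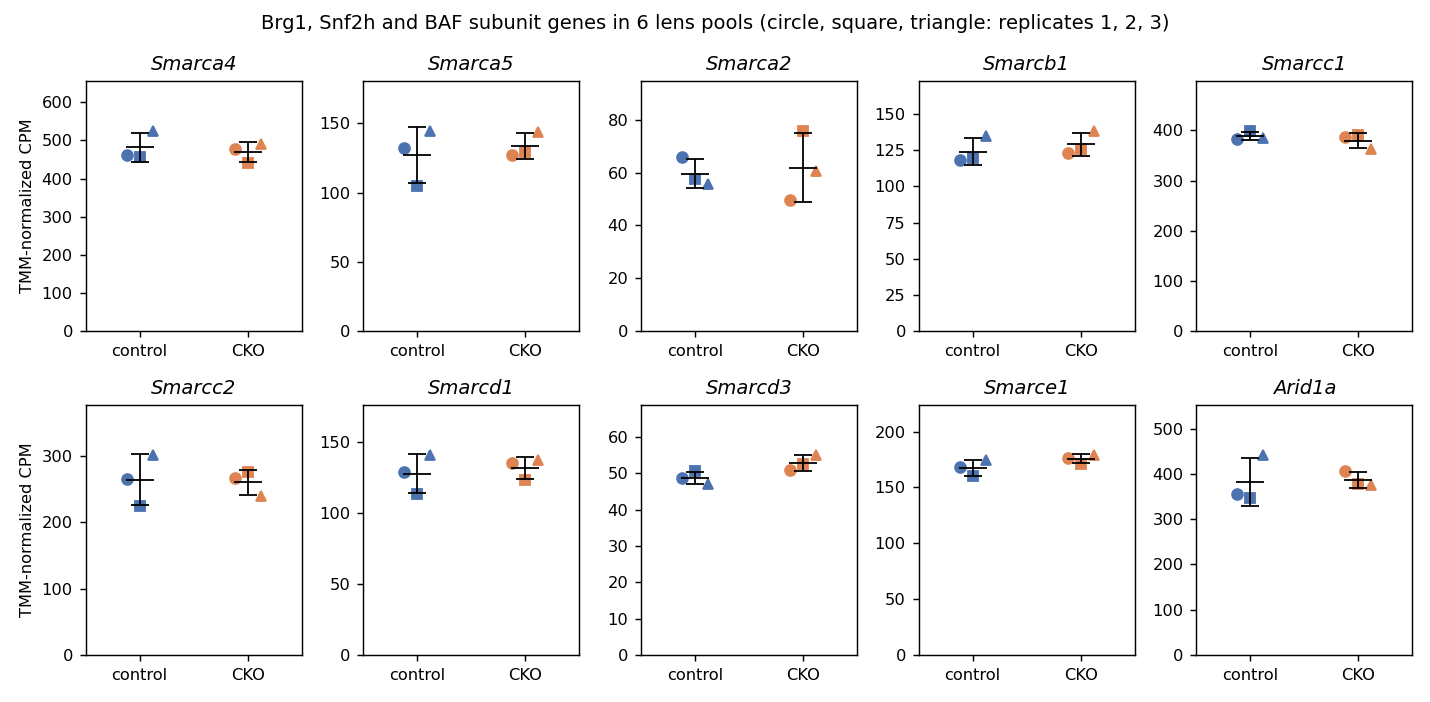
TMM-normalized CPM (linear axis from 0, a separate scale for each gene) of the 10 genes in 3 control and 3 CKO pools, with 1 point per pool, the marker shape giving the replicate number, and lines for the group means. Control and CKO points overlap in 9 of the 10 panels, and in the Smarcd3 panel the lowest CKO pool (50.8 CPM) lies just above the highest control pool (50.5 CPM).

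Smarcd3 encodes BAF60c, a subunit that links BAF to tissue-specific transcription factors and is best known from heart and skeletal muscle. It was measured at 48.7, 50.5 and 47 CPM in control and at 50.8, 52.5 and 55.1 CPM in CKO, with means of 48.7 ± 1.71 and 52.8 ± 2.18 CPM (SD, n = 3 each). It was the only one of the 10 genes whose groups did not overlap, and the gap between them was that from 50.5 to 50.8 CPM. Non-overlapping groups were found for 8.36% of the 12879 genes, 3.67% with CKO higher and 4.69% with CKO lower, so that 1 in 10 is near that background. The log2 fold change was 0.12 (standard error 0.076, edgeR p = 0.169, adjusted p = 1), and the exact permutation p of 0.1 is the smallest that 3 against 3 pools can give. On chromosome 5 (24590818 to 24624411), 48.2% of the exon bases of Smarcd3 (2466 of 5120) also belong to other genes on the opposite strand, mainly Chpf2. The strand option of the counting is not stated, so fragments of these genes may not be separated. Chpf2, a glycosyltransferase of chondroitin synthesis, had overlapping groups and a log2 fold change of 0.023.

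Among the other BAF60 and core subunits, Smarcd1 (BAF60a) was measured at 129, 113 and 140.8 CPM in control and at 134.8, 122.9 and 137.4 CPM in CKO (log2 fold change 0.045, standard error 0.10, edgeR p = 0.66, exact permutation p = 0.7). Other genes share 12.7% of its exon bases. Smarcb1 (BAF47), a core subunit known as a tumour suppressor in rhabdoid tumours, was measured at 117.9, 119.4 and 134.4 CPM in control and at 123.3, 125.9 and 138.1 CPM in CKO (0.059, standard error 0.083, edgeR p = 0.501, exact permutation p = 0.5). The control and CKO pools overlapped for both genes.

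Smarce1 (BAF57), an HMG-box subunit that contacts DNA, was measured at 168.3, 160.2 and 174.4 CPM in control and at 176.6, 171.4 and 179.3 CPM in CKO. Its means were 167.6 ± 7.13 and 175.8 ± 4 CPM (SD, n = 3 each), which is a log2 difference of 0.068 (standard error 0.066, edgeR p = 0.333, exact permutation p = 0.2). The groups overlapped by 1 CKO pool, which lay below the highest control pool. With the narrowest interval of the 10 genes, a log2 range of -0.088 to 0.22, Smarce1 was the most precisely measured of them.

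The scaffold subunits Smarcc1 (BAF155) and Smarcc2 (BAF170) form the dimer on which BAF assembles. Smarcc1 varied least over the 6 pools, at 383.3, 398.8 and 385.2 CPM in control and 386.4, 390.5 and 362.8 CPM in CKO, with a log2 fold change of -0.035 (standard error 0.072, edgeR p = 0.645, exact permutation p = 0.6). Smarcc2 varied more, at 265.2, 225 and 301.8 CPM in control and 266.9, 275.1 and 239.1 CPM in CKO, and its log2 fold change was -0.020 (standard error 0.12, edgeR p = 0.873, exact permutation p = 1). All 3 CKO pools of Smarcc2 lay within the range of the control pools.

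Arid1a (BAF250a), the large DNA-binding subunit that defines canonical BAF, was measured at 356.6, 347.4 and 442.5 CPM in control and at 407.1, 378.4 and 374.8 CPM in CKO. Again the CKO pools lay within the control range, which was set by control pool 3. The means were 382.2 ± 52.5 and 386.8 ± 17.7 CPM (SD, n = 3 each), with a log2 fold change of 0.017 (standard error 0.11, edgeR p = 0.883, exact permutation p = 0.9).

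Across the 10 genes the median log2 fold change was 0.050, with 7 values above and 3 below 0, against a median of 0.0019 over all 12879 genes tested. Without control pool 2 the median of the 10 was -0.0145. The median size of the change, regardless of sign, was 0.050 for the 10 genes and 0.062 for the 4727 tested genes within the same range of mean CPM. All 10 lay within 0.25 of 0, as did 10908 of all genes tested. The 95% intervals of all 10 lay between a fold of 0.795 and 1.36.

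**Figure D2:**
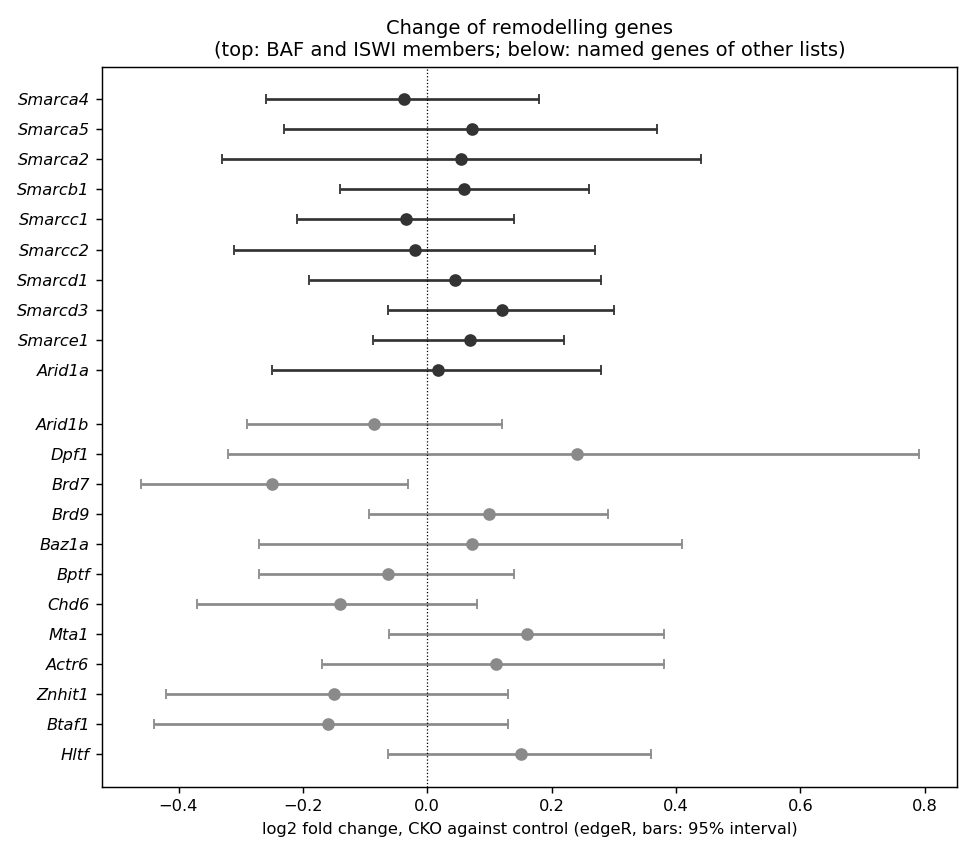
Log2 fold change of CKO against control from edgeR (x axis; points, with bars for the 95% interval) for the 10 genes in the upper block and for the named genes of the other remodelling lists in the lower block. All 10 upper intervals cross 0, and in the lower block only that of Brd7 (-0.25) does not; its adjusted p was 1.

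Levels of different genes were compared per kilobase of exon, as TMM CPM divided by the union of annotated exons. Smarca4 was the highest at 73.4 ± 4.56 CPM per kb (SD, n = 6 pools), followed by Smarcc1 at 49.1 ± 1.53 and Smarcc2 at 47.2 ± 4.89, whose ranges over the pools overlapped. Arid1a (33.5 ± 3.06) and Smarcd1 (32.2 ± 2.57) came next and did not differ beyond their spread. Smarce1 (25.8 ± 1.03) lay below them in all 6 pools. Smarca5 (16.7 ± 1.87) and Smarcb1 (16 ± 1.03) overlapped, and Smarcd3 (9.91 ± 0.554) and Smarca2 (4.26 ± 0.639) were lowest. Per kilobase, Brg1 mRNA was thus the most abundant of the 10 and Brm mRNA the least. The position of Smarce1 depended on the length used. With the longest transcript in place of the exon union its level was 55.1 CPM per kb, above Arid1a (47) and Smarcd1 (39.2), and the order of the other genes was kept.

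**Figure D3:**
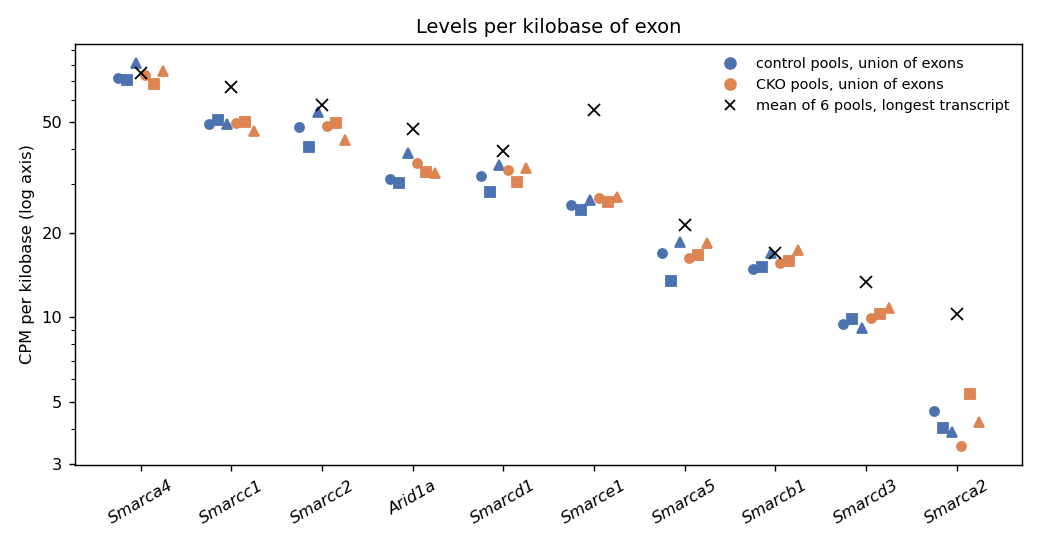
Level of the 10 genes in CPM per kilobase (log axis), with 1 point per pool in control and CKO for the exon union and a cross for the mean of 6 pools with the longest transcript. The points fall from Smarca4 (68 to 81 CPM per kb) on the left to Smarca2 (3.47 to 5.31) on the right.

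For the motor, Arid1, BAF60 and BAF53 subunits a BAF complex carries a single paralogue at a time, whereas Smarcc1 and Smarcc2 can be in the same complex. For BAF53 the paralogue in use is known to change in developing neurons as cells leave the cell cycle. The ratio of paralogues within a pool does not depend on how libraries are scaled. Smarca2 to Smarca4, per kilobase, was 0.0645, 0.0571 and 0.048 in the control pools and 0.0471, 0.078 and 0.0559 in the CKO pools. Brm mRNA was therefore a small share of the BAF motor mRNA in every pool, and the log2 difference of 0.073 between groups was below the pooled SD of 0.30. The longest transcript gave a higher mean ratio (0.139, against 0.0585), so that its size depends on the transcript model.

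Smarcc2 to Smarcc1 was near parity, at 0.976, 0.796 and 1.11 in control and 0.975, 0.994 and 0.93 in CKO. Smarcd3 to Smarcd1 was 0.297, 0.351 and 0.263 in control and 0.296, 0.336 and 0.315 in CKO, and Smarcd2 to Smarcd1 was 0.278, 0.439 and 0.253 in control and 0.292, 0.338 and 0.299 in CKO. Smarcd1 was hence the leading BAF60 mRNA in all 6 pools. In the neural form of BAF, Actl6b (BAF53b) takes the place of Actl6a (BAF53a). Actl6b to Actl6a was 0.0913, 0.0611 and 0.167 in control and 0.13, 0.096 and 0.103 in CKO, lowest in control pool 2 and highest in control pool 3, the pools with the lowest (1117 CPM) and the highest (2991 CPM) summed retina markers. The part of retinal tissue in this ratio was not tested.

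Arid1b to Arid1a was 0.38, 0.357 and 0.337 in control and 0.327, 0.322 and 0.348 in CKO. Its log2 difference of -0.11 was the only one of the 7 that exceeded its pooled SD (0.074), although the groups overlapped. With 1 pool left out the difference ranged from -0.149 (without control pool 3) to -0.0632 (without control pool 1), the latter below that SD in size. Smarca1, which encodes Snf2l, the second ISWI motor, stood to Smarca5 at 0.41, 0.425 and 0.331 in control and 0.329, 0.452 and 0.341 in CKO. The groups overlapped in all 7 ratios.

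**Figure D4:**
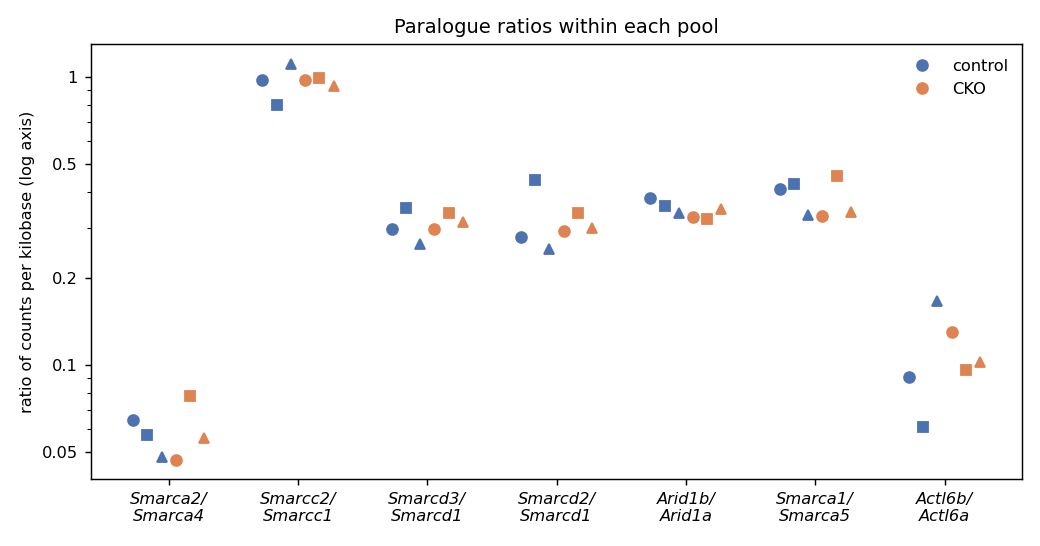
Ratio of paralogues per kilobase of exon (log axis) within each pool, control in blue and CKO in orange, with the marker shape giving the replicate number (circle 1, square 2, triangle 3). Control and CKO points overlap for each pair, and the Smarca2 to Smarca4 ratio is below 0.1 in all 6 pools.

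Control pool 2 had the lowest value for 5 of the 10 (Smarca5, Smarcc2, Smarcd1, Smarce1 and Arid1a), for 47.9% of 71 further remodelling genes and for 31.6% of all genes tested. Control pool 3 had the highest value for 5 of the 10 (Smarca4, Smarca5, Smarcc2, Smarcd1 and Arid1a), for 43.7% of the 71 and for 23.6% of all genes. Control pool 2 was the pool with the highest summed lens fibre markers (22459 CPM, against 7086 to 10759 CPM) and the lowest retina markers, and control pool 3 the pool with the highest retina markers. Of the 15 retina markers and the 10 lens fibre markers none was at 0 in all pools. The part of the tissue makeup in the levels of the 10 genes was not tested. The CKO pools lay closer together: summed over the 10 genes they reached 2198, 2162 and 2182 CPM, against 2130, 2034 and 2351 CPM in control pools 1, 2 and 3.

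**Figure D5:**
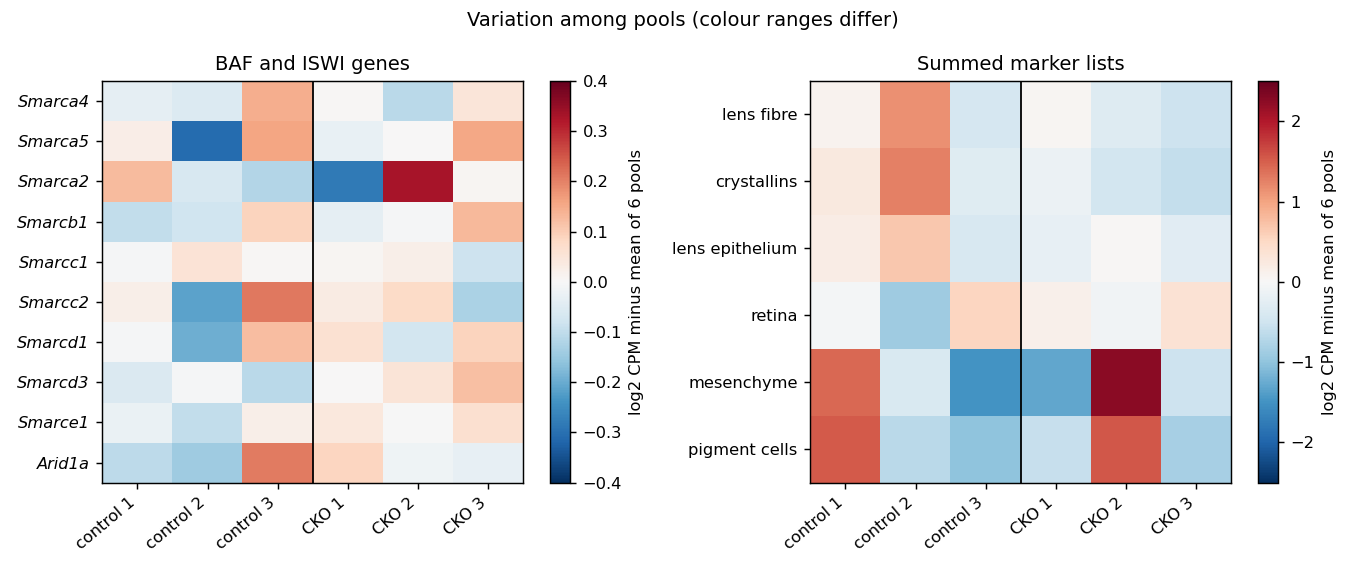
Log2 CPM minus the mean of the 6 pools, in colour, for the 10 genes (left) and for 6 summed marker lists (right, on a wider colour range), with 1 column per pool and a line between control and CKO. Smarca5 is lowest in control pool 2 (-0.31) and Smarca2 is highest in CKO pool 2 (0.33), while the marker lists span -1.49 to 2.25.

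Log2 CPM with a prior count of 1 was also centred on each gene's mean over the 6 pools. By these values the genes whose pattern was nearest to Smarca4 were Asxl1, Zbtb22 and Polb. Their root mean square differences were 0.016, 0.017 and 0.018 on the log2 scale, against a median of 0.168 over all genes tested. Those nearest to Smarca5 were Zfp422, Hs2st1 and Fam172a (0.018, 0.018 and 0.024, median 0.215). As these genes were picked as the nearest of all genes tested over 6 pools, values far below the median follow from the choice. Whether they vary together with the motors was not tested. The difference between Smarca4 and Smarca5 was 0.124, which put Smarca5 in place 3900 from Smarca4 and Smarca4 in place 2145 from Smarca5. Of the 10, Smarcb1 (0.067, place 513) was nearest to Smarca4 and Smarcd1 (0.074, place 487) to Smarca5.

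In 6 lists of other remodellers, 71 genes were tested, 0 were called by edgeR, limma voom or DESeq2, and 1 had an unadjusted p under 0.05 by edgeR. Over all 12879 genes, edgeR and limma voom called 0 and DESeq2 called 0.66%, and 3.55% had an unadjusted p under 0.05 by edgeR. The median log2 fold change of the 71 was -0.0063, and all 71 lay within 0.25 of 0. The groups did not overlap for 3 of them (4.23%), against 8.36% of all genes. These were Brd7 with CKO lower, and Actb, the actin subunit of BAF, and the Snf2-type translocase Hltf with CKO higher.

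Among 13 further BAF subunits 7 values were above and 6 below 0 (median 0.013), from Arid1b at -0.086 to Dpf1, the neuronal BAF45b, at 0.24. Both ends depended on single control pools, since Dpf1 was at 0.0564 without control pool 2 and 0.529 without control pool 3, and Arid1b was at -0.138 without control pool 2 and -0.015 without control pool 3. In the PBAF and non-canonical BAF list all 7 genes were measured, Bicra and Bicral under their older symbols Gltscr1 and Gltscr1l, with 2 values above and 5 below 0 (median -0.012). Its gene with the highest value was Brd9, a bromodomain subunit of non-canonical BAF, at 0.10. Brd7, the bromodomain subunit of PBAF, was measured at 126.4, 145.3 and 117.5 CPM in control and at 112.2, 107.2 and 108.5 CPM in CKO. It was lower in all 3 CKO pools (log2 fold change -0.25, standard error 0.091), with an unadjusted p of 0.0308 and an adjusted p of 1 by edgeR. Control pool 2 set part of the size, since without it the value was -0.147.

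The 12 genes of the ISWI list, Smarca1 and partners of the ISWI motors, were evenly split, 6 above and 6 below 0 (median 0.0067). They ran from Bptf, the large subunit of NURF, at -0.064 to Baz1a, the ACF1 partner of Snf2h, at 0.072. Of 17 CHD and NuRD genes 10 were above and 7 below 0 (median 0.013), from Chd6 at -0.14 to Mta1 at 0.16. In the INO80, SRCAP and TIP60-p400 list 5 of 12 were above and 7 below 0 (median -0.0073), from Znhit1 at -0.15 to Actr6 at 0.11. The 10 other Snf2-type motors were split 5 and 5 (median 0.0020), from Btaf1 at -0.16 to Hltf at 0.15. Btaf1 was at -0.0098 without control pool 2 and -0.251 without control pool 3. With 1 pool left out, the other end values ranged from 0.0527 to 0.140 for Brd9, -0.110 to -0.00548 for Bptf, -0.0639 to 0.185 for Baz1a, -0.215 to -0.0902 for Chd6, 0.101 to 0.227 for Mta1, -0.204 to -0.0567 for Znhit1 and 0.0357 to 0.183 for Actr6.

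A set of 5 genes that act in fibre cell differentiation and denucleation, and whose expression or function has been tied to Brg1 or Snf2h, was read from the same fit. Dnase2b, the lysosomal DNase that degrades fibre cell DNA, was measured at 12.9, 22.6 and 7.54 CPM in control and at 0.973, 0.305 and 0.468 CPM in CKO, with a log2 difference of -4.66 (standard error 0.59). Its adjusted p was 0.322 by edgeR and 1.28e-13 by DESeq2, so that the call depended on the tool. Hsf4 was measured at 61.3, 129.9 and 50.8 CPM in control and at 41.8, 36.2 and 31.3 CPM in CKO (-1.15, standard error 0.36, adjusted p = 1), and without control pool 2 its value was -0.612. Dnase2b and Hsf4 had groups that did not overlap, as did 8.36% of all genes tested. Both also belong to the 10 lens fibre markers, all of which lay below 0 (median -1.35), 6 of them with CKO lower and no overlap. Of the 16 crystallins 15 lay below 0 (median -1.19), 10 of them with CKO lower and no overlap. These 2 lists are not separate from the 5 genes, since the crystallins also include Cryaa. Whether the other genes of the 2 lists are tied to Brg1 or Snf2h was not tested. The values of Foxe3 (-0.48), Cryaa (-0.55) and Hsf2 (0.11) had overlapping groups. By edgeR none of the 5 genes passed the test. In the same 6 pools the log2 fold changes of Smarca4 and Smarca5 were -0.038 and 0.071. These are mRNA levels of whole lenses, and a link between the motors and these 5 genes was not tested.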

How the data were processed

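RNA-Seq was done on 6 pools of E14.5 lenses (3 control, 3 CKO). The authors aligned reads to mm10 with TopHat2 2.0.13, and the deposited raw counts are fragments per RefSeq gene from HTSeq 0.6.1, kept for genes with a mean FPKM over a minimum in either group. Genes that reached 10 counts in 3 or more libraries were tested by a robust quasi-likelihood fit in edgeR 4.0.16 under R 4.3.3, with TMM scaling and p-values adjusted by Benjamini-Hochberg at a threshold of 0.05. Exact permutation tests were two-sided, on log2 CPM with an offset of 0.5. The p-values measure the spread between pools. Exon lengths came from GENCODE M21 (12963 of 13024 genes matched). The fit was tested on simulated data. Alternatives were DESeq2 1.42.0, limma voom 3.58.1, other scalings and filters, a replicate block and each library left out; leaving out both mesenchyme-rich pools was chosen after seeing the data. Named were the 10 genes, their paralogues, each list's highest and lowest gene and any with an unadjusted p under 0.05, the 3 genes nearest each motor, Gata3 and marker genes. Chpf2, the genes whose groups did not overlap and the genes tied to denucleation were read as well. The members and lists were chosen with earlier results of these data known. Protein sequences were not used here.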

Additional observations from a re-analysis of the deposited data

How the results depend on the processing

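The call for the 10 genes was the same in all 15 alternatives, with 0 called in each; under library totals alone 1 gene, Smarcd3, had an unadjusted p under 0.05 (0.0498). Over all genes, DESeq2 called 85, library totals alone 1, and leaving out 1 library 0 to 1 (1 without control replicate 3), against 0; unadjusted p-values under 0.05 numbered 1234 without control replicate 3 and 806 without control replicate 2, against 457. Correlations of same-numbered deviations showed no pairing of the pools by title number (-0.49, 0.09 and 0.44). By the description numbers the 2 shared numbers gave 0.09 and -0.48. The highest value, 0.56, was between control pool 1 and CKO pool 2, the mesenchyme-rich pools. With 3 pools per group these values cannot settle whether pools were paired. With the title number as a replicate block in edgeR 0 genes were called and 516 had an unadjusted p under 0.05.

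The median of the 10 genes was 0.149 with library totals alone, where the median of all genes moved to 0.103, and lay between -0.0145 and 0.0944 with 1 library left out. Under library totals alone the sign turned for Smarca4 (0.0601), Smarcc1 (0.0698), Smarcc2 (0.0705), Arid1b (0.00973) and Bptf (0.0317), all below that shift of all genes. Without both mesenchyme-rich pools it turned for Smarca2 (-0.0288) and Arid1a (-0.00298). With 1 library left out it turned for Smarca4 (-0.0713 to 0.0278), Smarca5 (-0.0385 to 0.174), Smarca2 (-0.117 to 0.192), Smarcc2 (-0.111 to 0.0871), Smarcd1 (-0.0238 to 0.122), Arid1a (-0.0349 to 0.136) and Baz1a (-0.0639 to 0.185); the cause was not tested. Dnase2b passed the threshold with DESeq2 alone (-4.65).

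With the longest transcript as length, mean ratios were 0.139 for Smarca2 to Smarca4, 0.345 for Smarcd3 to Smarcd1 and 0.274 for Arid1b to Arid1a. Mean levels in CPM per kb were then 21.3 (Smarca5), 10.3 (Smarca2), 17 (Smarcb1), 66.6 (Smarcc1), 57.5 (Smarcc2), 39.2 (Smarcd1), 13.4 (Smarcd3), 55.1 (Smarce1) and 47 (Arid1a).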
